A study of Mus musculus with 22 samples.

Results

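Heat shock protein genes were followed in bone marrow-derived macrophages (BMDM), macrophages grown from mouse bone marrow in culture. The set comprised 10 genes taken by name, Hspb1, Hspa1a, Hspa1b, Hspa8, Hsph1, Hsp90aa1, Hsp90ab1, Dnajb1, Hsf1 and Bag3, and every array probe whose RefSeq accession mapped to one of them was used. Of these 10 genes, 9 had a probe (12 probes in all), and these 9 were tested among 22383 genes. Hspb1, the gene of HSP27, was of interest because its protein is a known substrate of the kinase MK2, which the study had deleted. Per the labels, the cells came from male C57BL/6 mice aged 10 to 14 weeks that were wild-type (wt), lacked MK2 (MK2-/-) or lacked both MK2 and MK3 (MK2/3-/-), and were either stimulated with lipopolysaccharide (LPS; 100 ng per ml for 360 min) or left unstimulated in medium. LPS is an outer-membrane component of Gram-negative bacteria. There were 4 medium and 3 LPS arrays of wt BMDM, 4 and 4 of MK2-/- BMDM, and 3 medium and 4 LPS arrays of MK2/3-/- BMDM. Both deletions were carried by the whole animal, and all cells had been differentiated with M-CSF, which was removed before the experiment.

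Heat shock proteins are chaperones that keep other proteins folded and in solution. HSP70 proteins bind short hydrophobic stretches of a client and release them in a cycle driven by ATP, with J-proteins such as the product of Dnajb1 starting the cycle and nucleotide exchange factors such as those of Hsph1 and Bag3 ending it. HSP90 proteins act later, on signalling kinases and receptors among others, and small heat shock proteins such as HSP27 hold unfolded clients without ATP and also bind actin. Transcription of the inducible members is driven by the heat shock factor HSF1, which binds inverted repeats of the unit GAA in their promoters. In macrophages, HSP27 is best known as a phosphorylated target of the p38-MK2 pathway.

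The promoters of the members with the widest range between arrays, and of Bag3, the member that fell with LPS in every genotype, are given here because HSF1 acts on them. They come from a RefSeq table of the assembly GRCm38.p6, which held windows of 300 bases around a transcription start for 6 of the 10 members (8 windows). Capitals mark the letters GAANNTTC or TTCNNGAA, a pair of facing units, each of which reads the same on both strands, and overlapping matches run together.

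Hspb1 (chr5:135887669-135887968, plus strand): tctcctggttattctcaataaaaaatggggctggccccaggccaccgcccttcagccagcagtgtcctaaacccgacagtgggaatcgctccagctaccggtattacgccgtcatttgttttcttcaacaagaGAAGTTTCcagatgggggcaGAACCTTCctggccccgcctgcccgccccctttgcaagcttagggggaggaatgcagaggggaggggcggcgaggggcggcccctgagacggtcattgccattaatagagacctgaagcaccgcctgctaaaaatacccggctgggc
Hspa1a (chr17:34972107-34972406, minus strand): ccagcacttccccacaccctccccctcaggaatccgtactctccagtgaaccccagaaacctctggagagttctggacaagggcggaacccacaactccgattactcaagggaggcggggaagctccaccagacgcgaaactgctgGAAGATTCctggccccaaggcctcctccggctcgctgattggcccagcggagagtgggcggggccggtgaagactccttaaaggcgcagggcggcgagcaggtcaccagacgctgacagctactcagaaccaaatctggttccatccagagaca
Hsph1 (chr5:149636266-149636565, minus strand): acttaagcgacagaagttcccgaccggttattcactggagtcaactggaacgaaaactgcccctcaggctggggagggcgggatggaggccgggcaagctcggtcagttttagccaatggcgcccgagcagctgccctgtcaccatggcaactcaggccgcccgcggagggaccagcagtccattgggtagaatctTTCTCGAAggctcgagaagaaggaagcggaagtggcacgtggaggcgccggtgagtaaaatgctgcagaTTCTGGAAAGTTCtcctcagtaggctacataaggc
Bag3 (chr7:128523333-128523632, plus strand): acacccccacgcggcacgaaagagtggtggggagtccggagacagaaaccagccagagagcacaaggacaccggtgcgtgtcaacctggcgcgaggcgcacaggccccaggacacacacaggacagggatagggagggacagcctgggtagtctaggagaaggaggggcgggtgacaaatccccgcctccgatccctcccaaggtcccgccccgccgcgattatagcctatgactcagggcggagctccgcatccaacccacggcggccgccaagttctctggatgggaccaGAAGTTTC

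These letters occurred in the windows of 5 of the 6 members, all but Dnajb1, and in the windows of 17% of the 27025 genes of the table (15.1% of its 32851 windows). The Hspb1 window held 2 matches, starting 117 and 97 bases before the start, and the Hspa1a window held 1, starting 104 bases before it. In Bag3 the match lay after the start. The Hsph1 window held 3 units in a row, alternating in orientation, just after the start, which was found in 0.603% of all windows. Hspa1b had no probe with its RefSeq accession. Its window was identical to that of Hspa1a at 98.7% of 300 bases, with 4 differing, and both genes encode nearly the same HSP70 protein, so that the Hspa1a probe may also have read Hspa1b and its values are uncertain in that respect. A match of letters is a description of the sequence and not a binding site.

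All 12 member probes were well above background on all 22 arrays, and none of their spots had been marked as an outlier by the scanner software. Array medians of the processed signal lay between 32.7 and 107.8, with 61.1% to 82.7% of the probes well above background, and since these are arrays, precision is limited by their number. MK2-/- LPS replicate 3 (array c below) stood at the upper end of both ranges. It had 2927 marked spots, against 115 to 261 on the other arrays. Levels are given as log2 of the quantile-normalised signal, and levels of different probes are not compared with each other. All arrays of a genotype lay on 1 slide, so direct comparisons between genotypes cannot be told apart from differences between slides, whereas treated and untreated cells of each genotype lay side by side on a slide. The wt slide was scanned on another day than both knockout slides, so comparisons with wt are also comparisons between scan days. The arrays carry the letters a, b, c or e in the authors' naming, which are used below to name them, and the labels do not say what the letters stand for. The paper describes its array experiments as independent of each other. The labelled ages differ between all arrays of each MK2-/- group, but recur within the wt and MK2/3-/- groups. Where the arrays of a group do not stem from separate animals, p-values measure only the spread between these samples. The Mapkapk2 transcript was lower in both knockouts than in wt (log2 differences of -3.29 and -3.87 with LPS), and Mapkapk3 was lower in MK2/3-/- BMDM alone (-4.11 with LPS and -1.97 in medium, against wt). Macrophage markers were bright on all arrays (Csf1r between 17.16 and 18.5). Y-linked genes, however, were near background on MK2-/- array c of both treatments, although these samples were labelled male, and in wt medium array e Il6 reached 13.36, against 6.41 to 10.02 on the other wt medium arrays. Leaving out either the former pair or the latter array altered none of the member counts given here for the LPS responses.

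The response of the heat shock genes to LPS was mixed and differed from member to member. Bag3 fell in every genotype, Hspa1a rose in MK2-/- and MK2/3-/- BMDM, Hsp90aa1 rose in MK2-/- BMDM and Hsf1 fell in MK2/3-/- BMDM. At a Benjamini-Hochberg adjusted p below 0.05 in limma, the call rule used throughout, 1 of the 9 members changed with LPS in wt BMDM (0 higher, 1 lower), 3 changed in MK2-/- BMDM (2 higher, 1 lower) and 3 in MK2/3-/- BMDM (1 higher, 2 lower). Among all genes tested, 42.1%, 44.6% and 48.2% were called in the same comparisons, and the members' counts do not exceed these shares. Their median log2 difference was -0.24, -0.26 and -0.35, against -0.04, -0.01 and 0.01 over all genes. These counts depend on the scaling. When each array was set to its 75th percentile instead, the median log2 difference of all genes became 0.30, 0.28 and 0.29. The share of called genes that were higher with LPS went from 44.2%, 39.2% and 42.0% to 60.5%, 53.6% and 54.1%. The members that were called then numbered 2 higher and 1 lower in wt, 3 and 0 in MK2-/-, and 3 and 2 in MK2/3-/- BMDM. The share of all genes called under this scaling is not given here, so these member counts cannot be set against one.

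**Figure D1:**
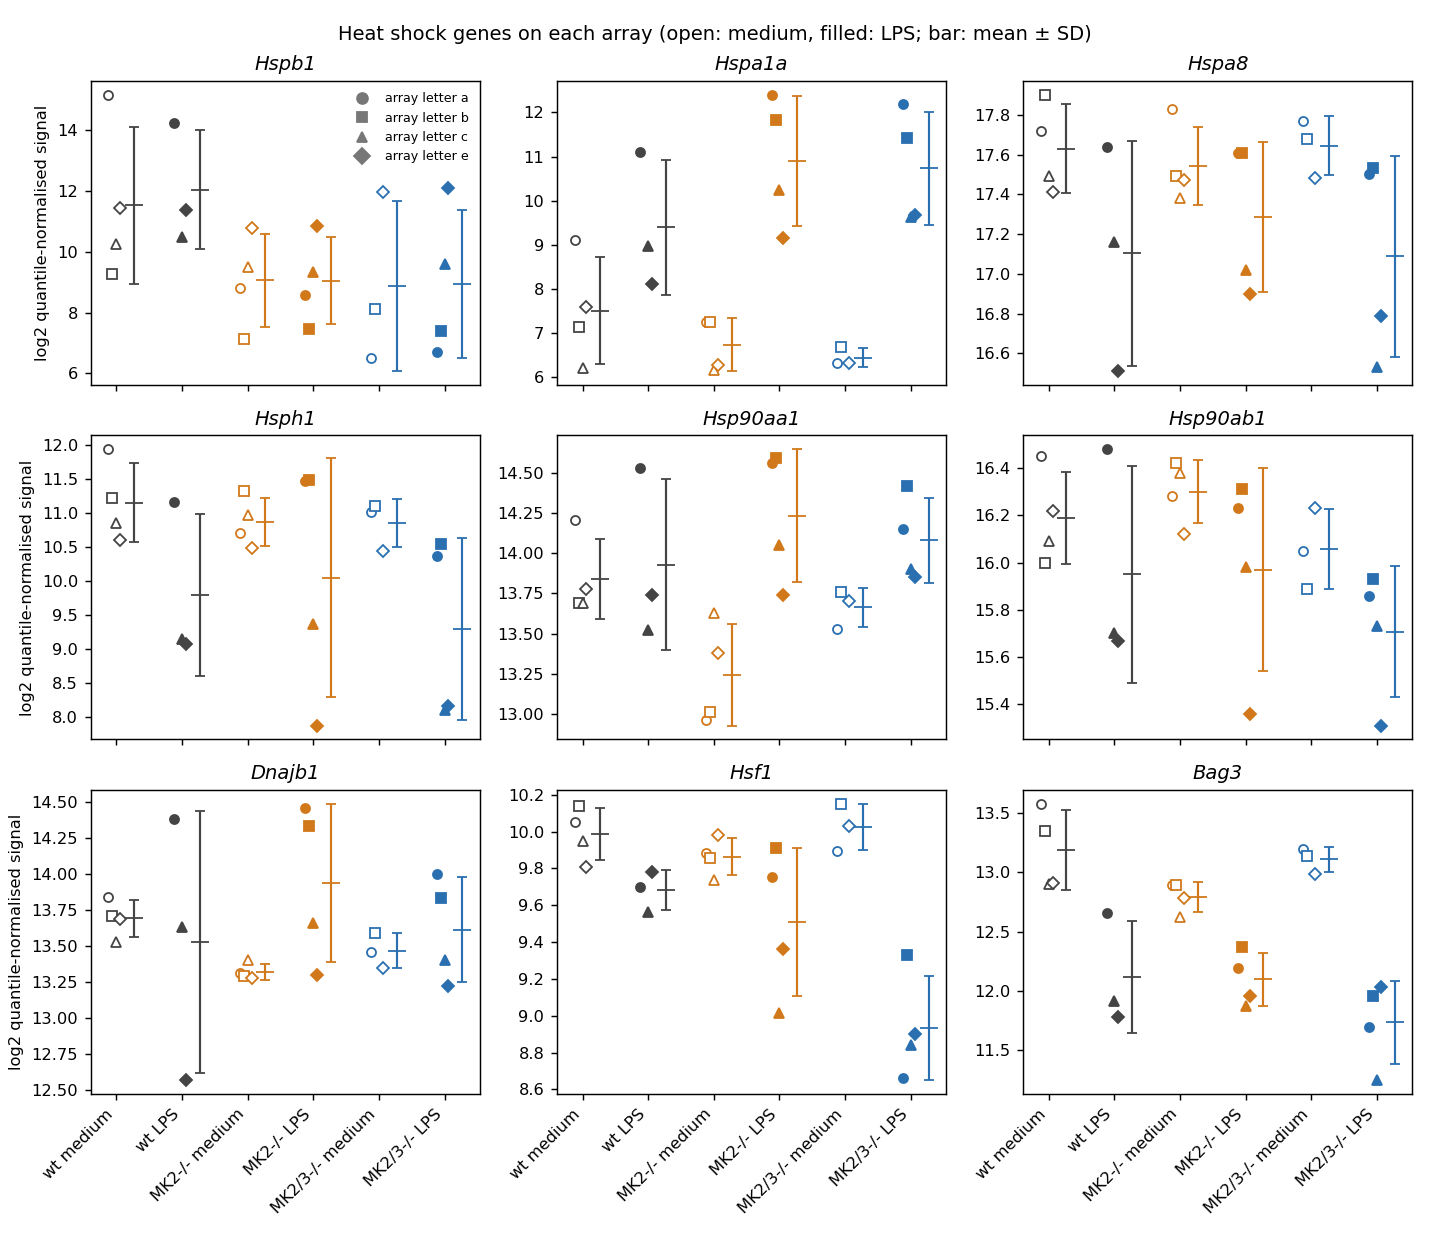
Log2 quantile-normalised signal (y axis) of the 9 measured members in the 6 groups (x axis). Each symbol is an array, its shape gives the array letter, open symbols are medium and filled symbols LPS, and the bar is the mean ± SD of 3 or 4 arrays. Bag3 lies lower with LPS in all 3 genotypes, and Hspb1 spans 6.51 to 15.15 with overlap between medium and LPS in each genotype.

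**Figure D2:**
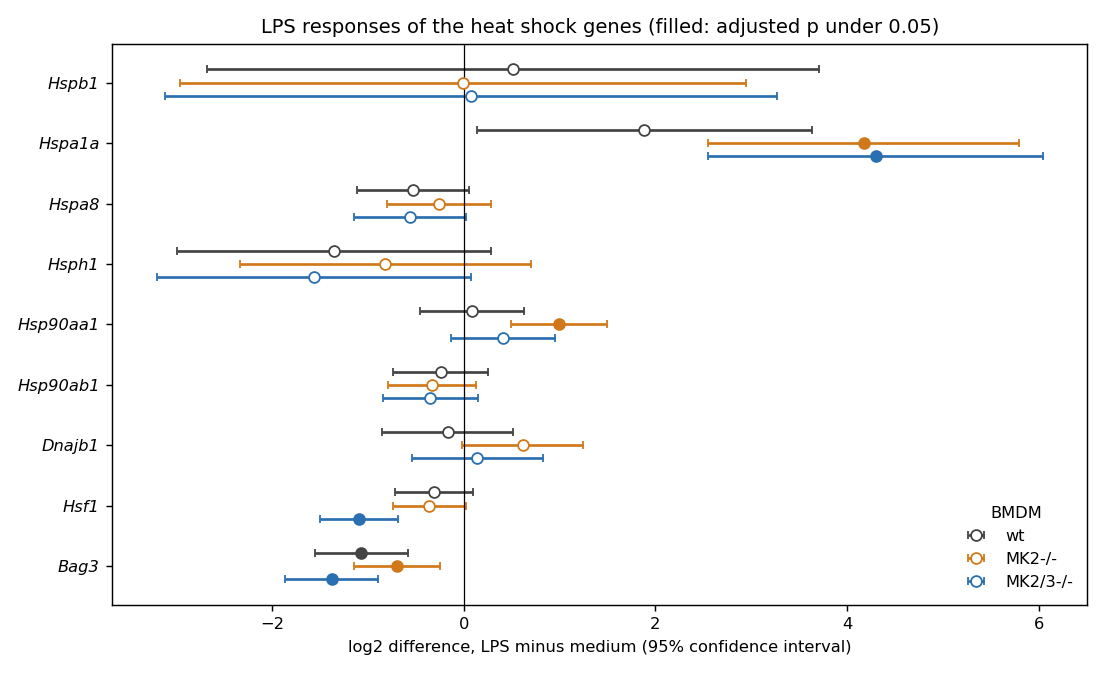
Log2 difference between LPS and medium (x axis) of each member (y axis) in wt, MK2-/- and MK2/3-/- BMDM, from limma. Bars are 95% confidence intervals and filled symbols passed the adjusted threshold of 0.05. Hspa1a lies furthest to the right, with 4.17 in MK2-/- and 4.30 in MK2/3-/- BMDM.

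Among the small heat shock proteins, Hspb1 did not change with LPS in any genotype by this test, and varied more between arrays than any other member. In wt BMDM its log2 signal was 15.15, 9.27, 10.25 and 11.42 on the medium arrays a, b, c and e, and 14.23, 10.49 and 11.38 on the LPS arrays a, c and e. The same figures in MK2-/- BMDM were 8.80, 7.13, 9.51 and 10.79 in medium and 8.57, 7.46, 9.34 and 10.83 with LPS, on arrays a, b, c and e. MK2/3-/- BMDM gave 6.51, 8.13 and 11.95 in medium on arrays a, b and e, and 6.71, 7.40, 9.60 and 12.08 with LPS on arrays a, b, c and e. The levels therefore followed the array letter within a genotype, not the treatment. Over the 10 pairs of medium and LPS arrays of one genotype and letter, LPS minus medium lay between -0.92 and 0.33, with a median of 0.00 and 5 pairs on either side, while the levels themselves ran from 6.51 to 15.15. The fitted LPS difference was 0.51 (95% confidence interval -2.68 to 3.70) in wt, -0.01 (-2.96 to 2.95) in MK2-/- and 0.08 (-3.11 to 3.27) in MK2/3-/- BMDM. With the array letter as a fixed block within genotype, a fit chosen after seeing the data, it was -0.24 (-0.83 to 0.35), -0.01 (-0.52 to 0.51) and -0.135 (-0.73 to 0.46).

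The mean of Hspb1 was lower in both knockouts, without passing the test. With LPS the means were 12.03 ± 1.95 (SD, n = 3) in wt, 9.05 ± 1.42 (n = 4) in MK2-/- and 8.95 ± 2.42 (n = 4) in MK2/3-/- BMDM, and the groups overlapped. The differences from wt were -2.98 (-6.17 to 0.21, adjusted p = 0.198 in limma) in MK2-/- and -3.09 (-6.28 to 0.11, adjusted p = 0.15) in MK2/3-/- BMDM. In medium they were -2.46 (adjusted p = 0.279) and -2.66 (adjusted p = 0.390). These intervals include no difference as well as a fall of over 6 log2 units, so no statement on the effect of MK2 or MK3 on the Hspb1 transcript can be read from them.

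Hspb1 moved with several genes of connective tissue cells, but not with every fibroblast marker. The 5 genes whose pattern over the 22 arrays was most like that of Hspb1, among all genes tested, were Col6a3 (Pearson's r = 0.988), Myl9 (0.985), Rbpms2 (0.985), Cavin3 (0.983) and Lhfp (0.983). Col6a3 encodes a chain of collagen VI, Myl9 a light chain of smooth muscle and non-muscle myosin, and Cavin3 a protein of caveolae. These genes were picked for their likeness, and the medium and LPS arrays of one letter within a genotype gave similar values, so that no p is attached. Of the 4 fibroblast markers, Col1a1, the collagen I chain, followed Hspb1 with r = 0.946 and ranged from 4.89 to 14.99. Col3a1 ranged from 6.59 to 10.87 (r = 0.800), Dcn, which encodes decorin, from 2.46 to 9.03 without following it (r = -0.27), and Pdgfra was well above background on 2 arrays alone, wt array a in medium and with LPS, the same arrays on which Hspb1 was highest. The log2 summed signal of the 4 markers followed Hspb1 with r = 0.942 and Spearman's rho = 0.957 over the 22 arrays, and with r = 0.940 without the 2 arrays farthest from the median of Hspb1. Signals were summed before the log was taken, so the brightest marker of an array weighs most. Col1a1 had the highest median (10.52, against 8.39 for Col3a1 and 6.32 for Dcn). The sum is therefore not equal evidence from 4 markers. For the 7 other cell type lists, r lay between -0.61 (T cell) and -0.01 (B cell). The summed fibroblast signal ranged from 9.84 to 15.06 in wt medium, 11.91 to 13.77 in wt LPS, 8.47 to 12.82 and 9.36 to 12.38 in the MK2-/- groups, and 8.48 to 13.94 and 9.66 to 13.37 in the MK2/3-/- groups. The part of such cells in the Hspb1 signal was not tested, and in a culture measured as a whole, more cells of a type and more RNA per cell cannot be told apart.

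**Figure D3:**
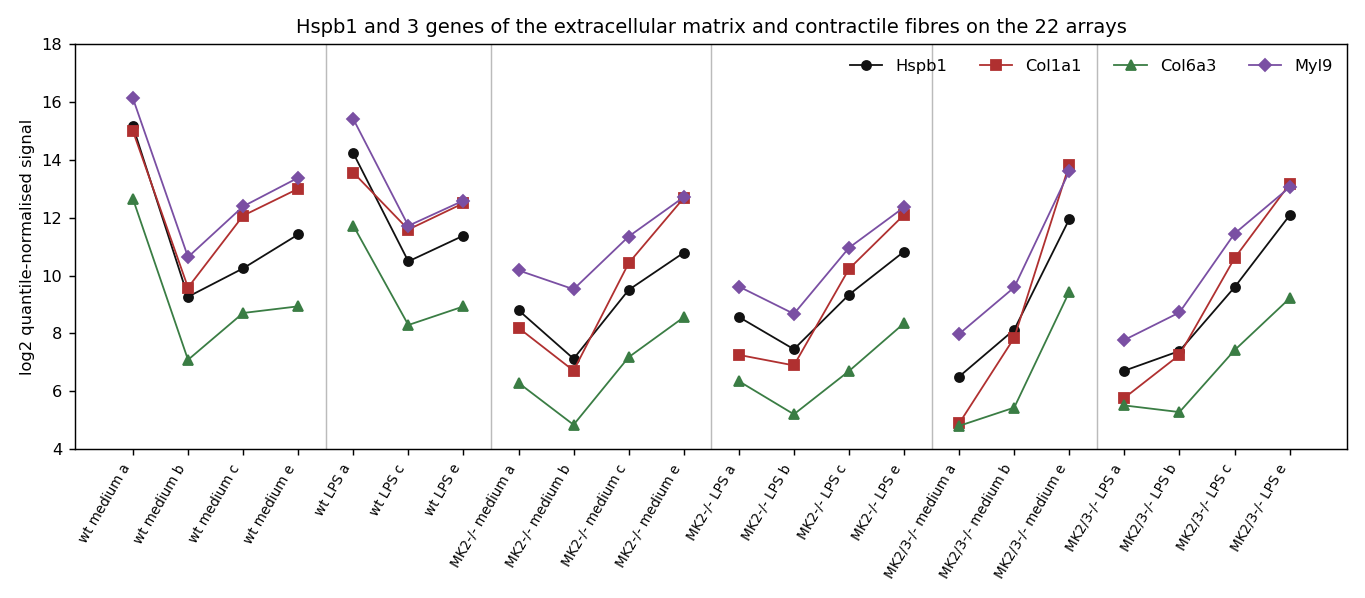
Log2 quantile-normalised signal (y axis) of Hspb1, Col1a1, Col6a3 and Myl9 on each of the 22 arrays (x axis, by group and array letter), with lines joining arrays of a group. The 4 genes rise and fall together between arrays, and wt array a stands highest in both treatments.

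The other members kept apart from Hspb1, with r between -0.21 (Hspa8) and 0.17 (Bag3) over the 22 arrays.

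In the HSP70 system, Hspa1a, the stress-inducible HSP70, gave the largest fitted LPS response of the members in all 3 genotypes. Its log2 signal in wt BMDM was 9.11, 7.13, 6.20 and 7.58 in medium (arrays a, b, c and e) and 11.1, 8.96 and 8.11 with LPS (arrays a, c and e). MK2-/- BMDM gave 7.24, 7.25, 6.15 and 6.27 in medium and 12.4, 11.82, 10.23 and 9.16 with LPS. MK2/3-/- BMDM gave 6.31, 6.68 and 6.32 in medium (a, b and e) and 12.2, 11.41, 9.63 and 9.68 with LPS. In both knockouts every LPS array lay above every medium array, whereas in wt BMDM medium array a (9.11) lay above LPS arrays c and e. The transcript rose by 4.17 ± 0.77 (SE; 18.05-fold, adjusted p = 0.00017) in MK2-/- and by 4.30 ± 0.83 (19.7-fold, adjusted p = 0.000263) in MK2/3-/- BMDM. The wt difference of 1.89 ± 0.83 (3.69-fold, adjusted p = 0.0781) did not pass the test, although LPS was higher than medium in all 10 pairs of one letter, wt included. It passed without wt LPS replicate 3, array e (2.52), without wt medium replicate 1, array a (2.42), or with the array letter as a fixed block within genotype (1.76 ± 0.56, adjusted p = 0.0304 in limma), a fit chosen after seeing the data.

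The response of Hspa1a was not shown to differ between genotypes. The difference of the LPS response from wt was 2.29 (95% confidence interval -0.09 to 4.67, adjusted p = 0.674) in MK2-/- and 2.41 (-0.06 to 4.89, adjusted p = 0.457) in MK2/3-/- BMDM. With LPS alone, Hspa1a was 1.51 (adjusted p = 0.235) and 1.34 (adjusted p = 0.256) above wt. Weighting arrays by their estimated quality brought both of these past the threshold, at 2.78 and 2.52. The 5 named genes most like Hspa1a over the 22 arrays, which were taken because Hspa1b had no probe, were Ifitm1 (r = 0.958), an interferon-induced membrane protein, Zdhhc2 (0.952), Nus1 (0.951), Eloc (0.948) and Dnaja1 (0.948). The last is a J-protein partner of HSP70. Both treatments enter these correlations, so they contain the LPS difference.

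Hspa8, the constitutive HSP70, ranged from 16.51 to 17.9 over all arrays by its brightest probe, and LPS differences were -0.53, -0.26 and -0.56 in wt, MK2-/- and MK2/3-/- BMDM (adjusted p = 0.143, 0.458 and 0.112). The other Hspa8 probes had the same sign in every genotype and were not called either. Under the 75th percentile these differences turned to 0.29, 0.52 and 0.47, none of them called. The wt fall was called with array weights (-0.74, adjusted p = 0.0126 in limma) and in 1 of 22 fits that left out 1 array. Since the sign depends on the scaling, no direction is given for Hspa8.

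Hsph1, the HSP110 exchange factor of HSP70, fell on most LPS arrays but not on all, and did not pass the test. Its medium arrays lay between 10.45 and 11.94 in all genotypes. With LPS its log2 signal was 11.17, 9.15 and 9.07 in wt BMDM (arrays a, c and e), 11.47, 11.49, 9.37 and 7.88 in MK2-/- BMDM (a, b, c and e). MK2/3-/- BMDM gave 10.37, 10.55, 8.11 and 8.17 (a, b, c and e). Arrays c and e thus lay below every medium array, as did MK2/3-/- array a, while the other a and b arrays lay within the medium range. Against the medium array of the same letter, wt array a differed by -0.77 and MK2/3-/- arrays a and b by -0.65 and -0.55. MK2-/- arrays a and b differed by 0.76 and 0.17. The mean differences were -1.35, -0.82 and -1.56 with standard errors of 0.78, 0.72 and 0.78 (adjusted p = 0.182, 0.393 and 0.111), and the second Hsph1 probe had the same sign throughout. Array weights brought the wt difference past the threshold, at -1.70.

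Dnajb1, the J-protein that delivers clients to HSP70, went the same way between arrays. With LPS it gave 14.38, 13.63 and 12.57 in wt (a, c and e), 14.46, 14.33, 13.66 and 13.3 in MK2-/- and 14, 13.83, 13.4 and 13.22 in MK2/3-/- BMDM, around medium values that stayed between 13.28 and 13.84. The differences were -0.17, 0.62 (adjusted p = 0.107) and 0.14, none of which passed. The wt value turned to 0.46 under the 75th percentile and to 0.31 without wt LPS replicate 3, and the MK2-/- value passed at 1.30 under the 75th percentile.

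Bag3, which couples HSP70 to small heat shock proteins and to autophagy, was the member that fell in all 3 genotypes. Its log2 signal was 13.58, 13.35, 12.9 and 12.91 in wt medium and 12.66, 11.92 and 11.78 in wt LPS. MK2-/- BMDM gave 12.89, 12.89, 12.62 and 12.78 in medium and 12.19, 12.37, 11.87 and 11.96 with LPS. MK2/3-/- BMDM gave 13.2, 13.14 and 12.99 in medium and 11.7, 11.96, 11.25 and 12.03 with LPS. No LPS array reached the lowest medium array of its genotype. The log2 differences were -1.07 ± 0.23 (SE; 2.09-fold lower, adjusted p = 0.00107) in wt, -0.70 ± 0.22 (1.62-fold lower, adjusted p = 0.012) in MK2-/- and -1.38 ± 0.23 (2.59-fold lower, adjusted p = 6.24e-05) in MK2/3-/- BMDM. Under the 75th percentile the MK2-/- fall was -0.33 and lost its call (adjusted p = 0.244). The response in MK2/3-/- BMDM differed from that in MK2-/- by -0.68 (adjusted p = 0.565) and from that in wt by -0.31 (adjusted p = 0.834), neither of which passed.

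**Figure D4:**
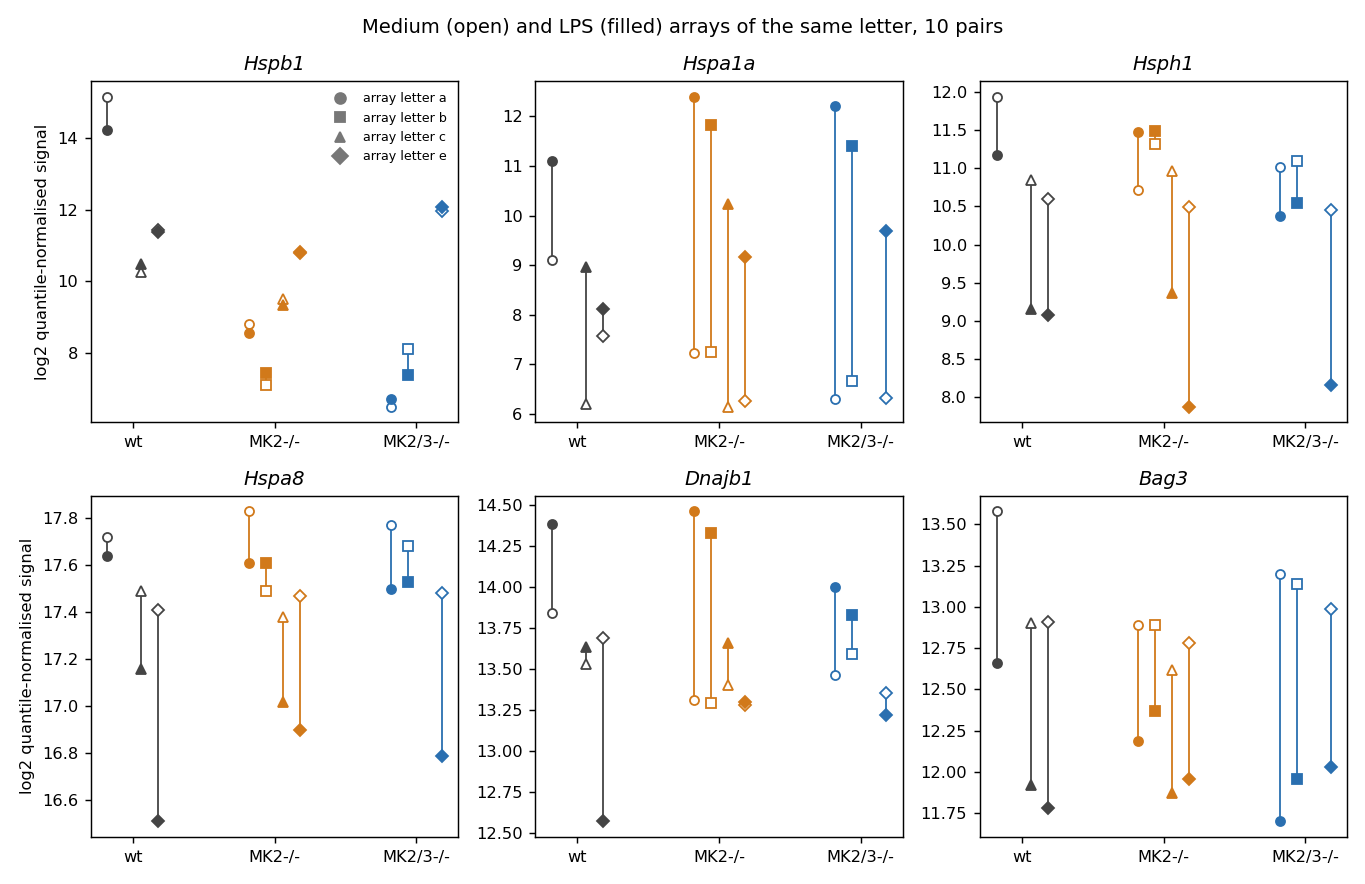
Log2 quantile-normalised signal (y axis) of 6 members on the medium array (open) and the LPS array (filled) of the same letter, joined by a line, by genotype (x axis, 10 pairs). Hspa1a lies higher with LPS in all 10 pairs and Bag3 lower in all 10, whereas Hspb1 is higher with LPS in 5 pairs and lower in 5, by -0.92 to 0.33.

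Of the HSP90 genes, Hsp90aa1, the inducible form, rose in MK2-/- BMDM. There it gave 12.96, 13.01, 13.63 and 13.38 in medium and 14.56, 14.59, 14.05 and 13.74 with LPS, with no overlap. The difference was 0.99 ± 0.24 (SE; 1.99-fold, adjusted p = 0.00203). It was 0.41 ± 0.26 (adjusted p = 0.205) in MK2/3-/- BMDM, again with no overlap, and 0.09 ± 0.26 (adjusted p = 0.827) in wt BMDM. Wt arrays lay between 13.69 and 14.21 in medium and between 13.52 and 14.53 with LPS. In medium, all MK2-/- arrays lay below all wt arrays (-0.60, adjusted p = 0.125 in limma, not called). With LPS these genotypes overlapped (0.31, adjusted p = 0.448). Both of these are also differences between slides. The difference between the MK2-/- and wt responses was 0.91 (0.17 to 1.65, adjusted p = 0.582) and did not pass. Under the 75th percentile Hsp90aa1 was called in all 3 genotypes, at 0.79, 1.69 and 1.19. Hsp90ab1, the constitutive form, differed by -0.24, -0.33 and -0.35 (adjusted p = 0.457, 0.248 and 0.246), but by 0.54, 0.38 and 0.54 under the 75th percentile, where the wt and MK2/3-/- values passed (adjusted p = 0.0321 and 0.0314). Its direction is therefore not given.

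Hsf1, the transcription factor that drives the inducible members, fell with LPS in MK2/3-/- BMDM. Its log2 signal there was 9.90, 10.15 and 10.03 in medium and 8.66, 9.33, 8.84 and 8.90 with LPS. In wt BMDM the medium arrays gave 10.05, 10.14, 9.95 and 9.81 and the LPS arrays 9.70, 9.56 and 9.78. For MK2-/- BMDM, 9.89, 9.86, 9.74 and 9.98 were measured in medium and 9.75, 9.91, 9.01 and 9.36 with LPS. All LPS arrays of wt BMDM and of MK2/3-/- BMDM lay below their medium arrays, while those of MK2-/- BMDM overlapped. The fall was 2.13-fold in MK2/3-/- BMDM (-1.09 ± 0.20, SE, adjusted p = 0.000118), and the differences in wt (-0.31 ± 0.20, adjusted p = 0.228) and MK2-/- BMDM (-0.36 ± 0.18, adjusted p = 0.122) did not pass. With LPS, Hsf1 was lower in MK2/3-/- than in wt BMDM by 1.68-fold (-0.75 ± 0.20, adjusted p = 0.0102, no overlap) and than in MK2-/- BMDM by 1.49-fold (-0.57 ± 0.18, adjusted p = 0.0415, overlapping). Both of these are also differences between slides. The former was lost in a fit of the compared groups alone (adjusted p = 0.0849), and the latter was lost in 9 of 22 fits that left out 1 array. In the comparison of LPS responses, where an additive slide effect cancels, MK2/3-/- BMDM differed from wt by -0.79 (-1.37 to -0.21, adjusted p = 0.221), which did not pass.

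Direct comparisons of the genotypes called 0 or 1 of the 9 members, which does not stand out from the shares of all genes called. With LPS, MK2-/- against wt BMDM called 0 members (11.6% of all genes). MK2/3-/- BMDM had 1 member called against wt (23.6% of all genes) and 1 against MK2-/- BMDM (13.5%), which was Hsf1 both times. In medium, 0 members were called in the comparisons of MK2-/- with wt, MK2/3-/- with wt and MK2/3-/- with MK2-/- BMDM, where 8.82%, 2.02% and 2.82% of all genes were called. The LPS responses of the genotypes, compared as an interaction, called 0 members as well, against 0%, 0.679% and 0.067% of all genes for MK2-/- against wt, MK2/3-/- against wt and MK2/3-/- against MK2-/-. Without adjustment, at a limma p below 0.05, Hsp90aa1 passed for MK2-/- against wt, Hsf1 for MK2/3-/- against wt, and Hsf1 and Bag3 for MK2/3-/- against MK2-/-. In the same order, 1685, 2545 and 1926 of all genes passed this unadjusted threshold.

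Within groups, the members other than Hspb1 varied together between arrays. After each group's mean was removed, 30 of the 36 member pairs had a positive correlation over the 22 arrays, with a median of 0.57, and the highest was that of Hspa1a with Hsph1 (0.885). All negative values belonged to Hspb1. With LPS, arrays a and b lay above arrays c and e in all 3 genotypes for 6 of the 9 members, Hspa1a, Hspa8, Hsph1, Hsp90aa1, Hsp90ab1 and Dnajb1, as they did for 4.73% of 21277 genes without a missing value. Wt LPS had no array b. The order was noticed in the data, and it is given with no test. For Hsph1, Hspa8 and Dnajb1 the LPS minus medium difference of a pair ran from -2.61 to 0.76, from -0.89 to 0.11 and from -1.12 to 1.15.

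The wider chaperone network was split between genes that rose and genes that fell with LPS. Of 77 other genes of the small heat shock protein, HSP70, HSP90, chaperonin, J-protein, co-chaperone and heat shock factor families, 73 were tested, of which 12 rose and 14 fell in wt, 17 rose and 19 fell in MK2-/-, and 15 rose and 22 fell in MK2/3-/- BMDM. Over all genes, 18.6%, 17.5% and 20.2% rose and 23.5%, 27.1% and 27.9% fell. The medians of the 73 genes were -0.03, -0.08 and -0.11.

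The co-chaperones (21 genes) had 1 higher and 6 lower in wt, 3 and 7 in MK2-/-, and 1 and 5 in MK2/3-/- BMDM. Stip1, the adaptor known as HOP that holds HSP70 and HSP90 together, rose by 1.87, 1.94 and 1.98 in wt, MK2-/- and MK2/3-/- BMDM (highest adjusted p = 8.3e-08). Ppid, a cyclophilin partner of HSP90, fell by 1.24, 1.23 and 1.82, and Bag4, a BAG-domain partner of HSP70, fell by 1.29, 2.07 and 2.96.

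J-proteins (18 tested) had 5 higher and 3 lower in wt, 7 and 5 in MK2-/-, and 8 and 6 in MK2/3-/- BMDM. Dnajb6 rose by 1.67, 2.45 and 2.24, Dnaja2 by 1.98, 2.29 and 1.96, and Dnaja1 by 1.40, 1.88 and 1.88, each with no overlap between LPS and medium.

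Among the chaperonins (10 genes), which fold actin and tubulin in the cytosol or matrix proteins in mitochondria, 2 were higher and 1 lower in wt, 2 and 2 in MK2-/-, and 1 and 5 in MK2/3-/- BMDM. Cct3 rose by 1.51, 1.43 and 1.63, whereas Hspe1, the mitochondrial HSP10, fell by 0.80 in wt and 0.80 in MK2/3-/- BMDM. The call of Hspe1 was lost under the 75th percentile in both, and in wt BMDM also with the mean of all kept probes and in the methods' t-test.

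Other HSP70 genes (10 tested) had 3 higher and 2 lower in wt, 3 and 2 in MK2-/-, and 4 and 3 in MK2/3-/- BMDM. Hspa5, the HSP70 of the endoplasmic reticulum, rose by 0.71, 1.30 and 0.70, and Hspa14, a ribosome-associated HSP70, fell by 1.36, 1.54 and 1.81. The MK2/3-/- call of Hspa5 was lost in a fit of the compared groups alone (adjusted p = 0.0561), in the methods' t-test and without MK2/3-/- medium replicate 3 (adjusted p = 0.123). The other HSP90 genes (2 tested) had 0, 0 and 1 called, the last being Hsp90b1, the HSP90 of the endoplasmic reticulum, which fell by 1.06 in MK2/3-/- BMDM but was not called under the 75th percentile (-0.18), in a fit of the compared groups alone or in the methods' t-test.

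Of the other small heat shock proteins (9 tested), 1 rose and 1 fell in wt, 2 and 1 in MK2-/-, and 1 and 1 in MK2/3-/- BMDM. Cryaa, known as a lens crystallin, rose by 1.06, 0.94 and 0.78, and Hspb11, a subunit of intraflagellar transport despite its name, fell by 0.67, 0.89 and 1.07. With the mean of all kept probes of a gene, Cryaa lost its call in wt (0.66, adjusted p = 0.133) and MK2-/- BMDM (0.41, adjusted p = 0.328). Its call in MK2/3-/- BMDM was lost in a fit of the compared groups alone, in the methods' t-test and without MK2/3-/- medium replicate 2 or 3, and that of Hspb11 in wt BMDM under the 75th percentile (-0.53, adjusted p = 0.0634). Of the heat shock factors and their regulators (3 tested), Hsf2 fell by 0.78 in MK2/3-/- BMDM and Hsf4 by 1.03 in MK2-/- BMDM, and no gene of this list was called higher. The call of Hsf4 was lost under the 75th percentile (-0.71, adjusted p = 0.0995) and in the methods' t-test. Hsbp1, which encodes a protein that binds HSF1, was called lower in wt (-0.49) and MK2-/- BMDM (-0.40), but its sign turned under the 75th percentile (0.055 and 0.25), so that no direction is given for it.

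**Figure D5:**
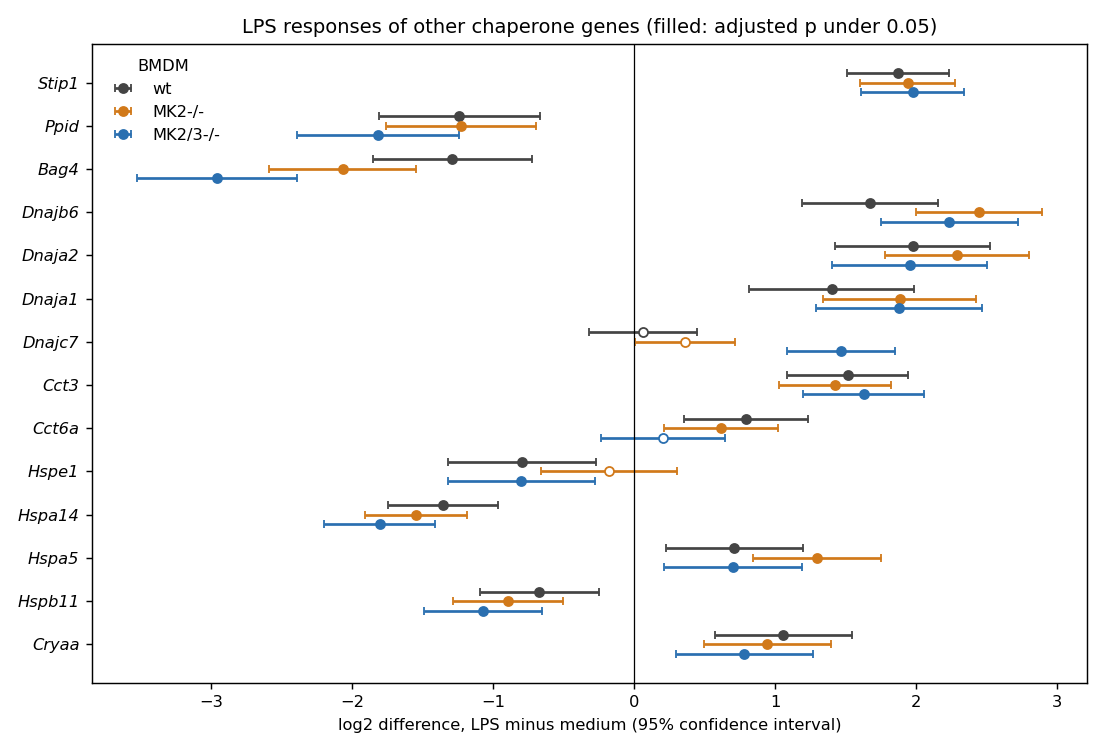
Log2 difference between LPS and medium (x axis) of 14 other chaperone and co-chaperone genes (y axis) in wt, MK2-/- and MK2/3-/- BMDM, from limma. Bars are 95% confidence intervals and filled symbols passed the adjusted threshold of 0.05. Stip1, Dnajb6, Dnaja2, Dnaja1 and Cct3 lie to the right in all 3 genotypes, and Bag4, Ppid and Hspa14 to the left.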

How the data were processed

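Each sample was hybridised to its own 1-colour Agilent mouse array, and the groups were taken from the sample labels. The deposited scanner output holds processed intensity values, background-subtracted by the authors with Feature Extraction 11.0.1.1. A table of log2 values that the authors deposited, quantile normalised and centred per probe, served as an alternative.

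Here, log2 processed signals were quantile normalised over 22 arrays. Control spots were dropped and marked spots set to missing. The 28103 probes that exceeded background clearly on 3 or more arrays were named through RefSeq accessions where these matched (27509 of 29150 RefSeq probes), and the brightest stood for its gene. Of 22383 genes, 18379 had a symbol. In limma 3.58.1 (R 4.3.3), 1 mean per group was fitted to all arrays, without a block, with Benjamini-Hochberg adjustment over all genes and two-sided p-values. The step was tested on simulated data. Promoter windows were searched with Python 3.11.15.

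The members and lists were chosen with earlier results of these data known. All members were named, with at most the 3 largest called changes of each other list in each LPS response, any called in an interaction, and the 5 most correlated genes for Hspb1 and for Hspa1b, which had no probe, so that Hspa1a took its place. There were 15 alternatives (other scalings, background corrections, probe rules and fits) and 22 fits that left out 1 array each. Normexp was run on the median spot signal in place of the planned mean signal.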

Additional observations from a re-analysis of the deposited data

Results flagged for a closer look

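The test of the difference in LPS response between MK2/3-/- and wt BMDM called 1 of the 73 other chaperone genes higher and 1 lower. These were Dnajc7 and Bag4 (1.37% each way), and 0.679% of all genes were called in this comparison. A link between these genes was not tested. Bag4, a BAG-domain protein, fell with LPS from 8.53 ± 0.12 (SD, n = 4) to 7.24 ± 0.50 (n = 3) in wt BMDM and from 8.15 ± 0.15 (n = 3) to 5.19 ± 0.40 (n = 4) in MK2/3-/- BMDM, on the log2 scale. The responses differed by -1.67 (adjusted p = 0.0496 in limma), a call that was lost in 18 of 22 fits that left out 1 array and under 10 of the 14 alternatives that test it, with -1.07 under the 75th percentile and -0.75 with normexp.

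Dnajc7, a J-protein, went from a mean of 13.53 to 13.59 in wt, from 13.44 to 13.81 in MK2-/- and from 13.45 to 14.92 in MK2/3-/- BMDM. Its LPS response in MK2/3-/- differed from that in wt by 1.40 (adjusted p = 0.0234 in limma). This call was lost in 6 of 22 fits that left out 1 array, in a fit of the compared groups alone and with the array letter as a fixed term within genotype. The difference between the MK2/3-/- and MK2-/- responses was not called for either gene.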

How the results depend on the processing

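Bag3 in wt and MK2/3-/- BMDM, Hspa1a in both knockouts, Hsp90aa1 in MK2-/- BMDM and Hsf1 in MK2/3-/- BMDM kept direction and call in their LPS responses under every alternative run. Member counts changed as follows. With 75th percentile scaling, 3 members were called with LPS in wt, 5 in MK2/3-/-, 2 between MK2/3-/- and wt with LPS, 0 between MK2/3-/- and MK2-/- with LPS and 1 between MK2-/- and wt in medium. Array weights gave 3 in the wt LPS response, 3 for MK2-/- against wt and 2 for MK2/3-/- against wt with LPS. A fit of the compared groups alone gave 0 for MK2/3-/- against wt and 0 against MK2-/- with LPS. The methods' t-test after Benjamini-Hochberg gave 0 and 0 for the same, and 1 for MK2-/- against wt in medium. In the same order, 62, 719 and 776 of all genes passed it. The t-test offered no test of the LPS response between genotypes. Keeping marked spots, or using the authors' table, gave 0 for MK2/3-/- against MK2-/- with LPS. The cause of these changes was not tested. Where no share of all genes stands beside a count in this section, the count cannot be set against one and is not read as a result about the members.

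Under the 75th percentile the sign turned for Hspa8 (0.29, 0.52 and 0.47 in wt, MK2-/- and MK2/3-/-), Hsp90ab1 (0.54, 0.38 and 0.54), Dnajb1 in wt (0.46), Hsbp1 in wt (0.055) and MK2-/- (0.25) and Cct2 in MK2-/- (0.21). The near-zero LPS response of Hspb1 turned to -0.0085 in MK2/3-/- with normexp, to -0.0086 in wt and -0.89 in MK2/3-/- with array weights, and to 0.047 in MK2-/- without the arrays of low Y-linked signal. Hsp90aa1 in wt turned to -0.063 with array weights.

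Same-numbered samples of a genotype correlated at -0.09 to 0.36 in their deviations, with 7 of 10 pairs over 0.1. Arrays of one letter correlated at -0.09 to 0.42, again with 7 of 10 over 0.1. The labelled age was shared in 8 of the 10 pairs of one number and in all 10 pairs of one letter. The labels do not state a pairing, and the main fits used none. If the letter marks paired cultures, these fits overstate the spread. The standard error for the Hspb1 LPS response in wt was 1.52 without the letter and 0.26 with it as a fixed block. As a random replicate block neither the number nor the letter moved a member count, and Hspb1 in MK2/3-/- became -0.041 with the label number. The letter as a fixed replicate block, chosen after seeing the data, gave 2 members in the wt LPS response (Hspa1a at 1.76 passed), where 41.4% of all genes were called. It put Hspb1 at -0.24 in wt and -0.135 in MK2/3-/-, with response differences from wt of 0.23 and 0.11. Within treatment the letter block gave 2 members for MK2/3-/- against wt with LPS (22.6% of all genes), and Hspb1 response differences of 0.0071 and 0.23.

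Leaving out 1 array each gave 1 to 2 members in the wt LPS response, 3 to 4 in MK2-/-, and 0 to 1 for MK2/3-/- against MK2-/- with LPS, with the other member counts unaltered, and 22 to 28, 31 to 39 and 30 to 38 other chaperone genes in the 3 LPS responses. Hspb1 ranged from -0.59 to 1.72, -0.65 to 0.57 and -1.09 to 1.63 in its LPS responses, and from -1.73 to 0.58 and -1.64 to 1.11 in its differences from wt. In wt, Hsp90aa1 ranged from -0.21 to 0.29 and Dnajb1 from -0.59 to 0.31.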
